A study of Mus musculus with 2 samples.

Results

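The genes described here encode ion channels, their subunits and the machinery of calcium entry. They are the protein-coding rows of the deposited count table whose symbols belong to the families Kcn (potassium channels), Cacn (voltage-gated calcium channels), Trpc, Trpm and Trpv (transient receptor potential channels), Clcn (chloride channels and exchangers), Scn (voltage-gated sodium channels), Orai, Stim, Itpr (IP3 receptors), Ryr (ryanodine receptors), Ano (anoctamins), Tmc and Piezo. The family rule found 196 genes among 35275 rows, of which 22026 are protein-coding. Of the 196 genes, 112 had at least 1 read and 84 had none in either library. Those whose reads in Effector and Exhaust summed to 50 or more are called measured, and there were 36.

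Both libraries came from spleen TEa cells, CD4 T cells of C57BL/6 background whose transgenic T cell receptor is specific for a BALB/c antigen, a piece of the class II protein I-E alpha. For the library titled Effector, the cells had been transferred to wild-type C57BL/6 mice that carried a Balb/c skin graft, and for the one titled Exhaust, to CB6F1 mice, the hybrid of BALB/c and C57BL/6, for which the labels name no graft. The study set abundant against moderate antigen, so host strain, graft and antigen amount differ together and cannot be told apart. Animal age, the time after transfer and the number of animals behind each library are not given in the labels. The libraries held 7844445 (Effector) and 8508129 (Exhaust) counted reads. Each group is 1 library, so no difference below has a replicate check or a p-value, and each interval is a 95% interval of counting error only. In bulk RNA, fewer cells that express a gene and less of its RNA per cell cannot be told apart.

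As background, a T cell that meets its antigen makes IP3, which opens IP3 receptors and empties the calcium store of the endoplasmic reticulum. Stim proteins sense the emptied store and open Orai channels in the plasma membrane, and the calcium that enters activates calcineurin and NFAT transcription factors. Potassium channels keep the membrane potential negative and so sustain that entry, while chloride, sodium and nonselective channels shape it further.

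The identity of the cells was checked first. All 8 T cell identity genes had reads in both libraries, among them Cd3e (7624 and 11432 reads in Effector and Exhaust) and Cd4 (9272 and 15463). Cd8a and the B cell marker Ms4a1 had 0 reads in both, while the other CD8 T cell marker, Cd8b1, had 164 and 81. The T cell genes Trac (22526 and 11561) and Thy1 (835 and 372) were lower in the Exhaust library. The 39 markers of other spleen cells summed to 10169 reads in the Effector and 7670 in the Exhaust library, most of them from Ighm (7540 and 3851 reads) and Pecam1 (2093 and 3198), and 12 and 15 of them were at 0. The myeloid marker Itgam (22 and 183 reads) and the NK marker Klrb1c (36 and 229) stood higher in the Exhaust library, while Lyz2 (37 and 10) and Csf1r (18 and 4) of the myeloid list and Ncr1 (5 and 0) of the NK list had fewer reads there. The neutrophil markers S100a8 (30 and 1) and S100a9 (32 and 2) and the erythroid marker Hba-a1 (50 and 6) also had fewer. Their part in the results below was not tested.

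A few of the channel genes differed widely between the libraries. Relative to the Effector library, the Exhaust library had more reads of the calcium entry pores Orai1 and Orai3, of the magnesium channel gene Trpm6, of the calcium channel pore gene Cacna1d and of the potassium channel gene Kcnq5. It had fewer of the calcium release channels Itpr1 and Ryr1, the potassium channel gene Kcnk5, the calcium channel subunit gene Cacnb1 and the chloride exchanger gene Clcn6. Cacna1d and Kcnq5 each share exon bases with an other-strand gene that also had more reads in the Exhaust library. Where they overlap, the reads cannot be told apart. The store sensors Stim1 and Stim2 and the main T cell potassium channels Kcnn4 and Kcna3 were within 2-fold. The sequences before the annotated starts of the 5 genes with more reads are shown here, with Orai2 for comparison, so that the 3 Orai starts can be set side by side. They are RefSeq sequences on build GRCm38.p6 (the coordinate system of mm10), the 250 bases before the start, written 5′ to 3′ on the gene's strand. The windows are chr5:123014824-123015073 (plus strand), chr5:136170657-136170906 (minus), chr7:127769565-127769814 (plus), chr19:18749480-18749729 (plus), chr1:21961943-21962192 (minus) and chr14:30491157-30491406 (minus). For Kcnq5 and Cacna1d, each with 2 listed starts, the start at the gene's end in the deposited table was taken, and the Trpm6 start lies 253 bases from that end. Capitals mark matches to GGAAA, the core bound by NFAT factors, on either strand (TTTCC on the other).
Orai1: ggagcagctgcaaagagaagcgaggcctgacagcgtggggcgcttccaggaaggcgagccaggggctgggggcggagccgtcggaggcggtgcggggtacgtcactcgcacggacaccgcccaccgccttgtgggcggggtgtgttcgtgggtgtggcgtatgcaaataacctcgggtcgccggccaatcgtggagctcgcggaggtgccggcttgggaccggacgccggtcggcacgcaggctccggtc
Orai2: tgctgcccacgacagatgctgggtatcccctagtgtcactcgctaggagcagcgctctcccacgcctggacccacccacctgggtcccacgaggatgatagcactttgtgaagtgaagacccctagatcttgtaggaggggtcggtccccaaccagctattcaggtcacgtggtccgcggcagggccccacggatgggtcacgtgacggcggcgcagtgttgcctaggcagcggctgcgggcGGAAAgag
Orai3: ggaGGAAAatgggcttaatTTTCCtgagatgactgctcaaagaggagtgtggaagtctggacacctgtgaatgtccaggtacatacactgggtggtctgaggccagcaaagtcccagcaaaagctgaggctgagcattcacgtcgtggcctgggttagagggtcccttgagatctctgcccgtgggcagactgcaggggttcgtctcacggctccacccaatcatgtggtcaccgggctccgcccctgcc
Trpm6: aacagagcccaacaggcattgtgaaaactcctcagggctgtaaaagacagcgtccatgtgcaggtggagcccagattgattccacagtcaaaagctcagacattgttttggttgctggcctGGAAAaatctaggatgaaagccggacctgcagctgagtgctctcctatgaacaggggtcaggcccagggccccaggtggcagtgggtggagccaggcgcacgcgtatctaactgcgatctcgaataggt
Kcnq5: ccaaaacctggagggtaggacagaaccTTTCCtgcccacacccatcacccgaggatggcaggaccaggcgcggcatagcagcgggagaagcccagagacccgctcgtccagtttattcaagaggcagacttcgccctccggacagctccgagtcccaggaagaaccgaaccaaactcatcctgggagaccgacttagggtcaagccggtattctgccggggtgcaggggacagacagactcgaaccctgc
Cacna1d: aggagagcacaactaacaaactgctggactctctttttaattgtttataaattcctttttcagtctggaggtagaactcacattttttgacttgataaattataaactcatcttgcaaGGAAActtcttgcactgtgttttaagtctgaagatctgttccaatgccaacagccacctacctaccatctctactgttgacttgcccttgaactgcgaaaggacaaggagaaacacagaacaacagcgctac

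The 3 Orai windows differed in base composition. GC content was 70.8% with 30 CpG sites for Orai1, 63.6% with 17 for Orai2 and 57.2% with 7 for Orai3, where the median of 32851 mouse windows of this kind was 52.4% and 6 sites. The Cacna1d window was the poorest of the 6 in GC (39.6%, 2 CpG sites). GGAAA matched 0 times before Orai1, 1 time before Orai2, 2 times before Orai3 and 1 time each before Trpm6, Kcnq5 and Cacna1d, and 55.6% of all windows hold it. Neither TGANTCA (the AP-1 element, in 6.75% of windows) nor TGACGTCA (the cyclic AMP response element, in 1.55%) occurred in any of the 6, on either strand. These matches describe letters and show no binding. RefSeq starts were matched by symbol for 148 of the 196 genes.

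Of the 36 measured channel genes, 5 were higher and 5 lower in the Exhaust library by at least 2-fold with an interval that excluded equality, and 26 were neither. That is 13.9% in each direction, where 6.65% of all 9999 measured genes were higher and 7.07% lower by the same rule. Genes of few reads passed the rule more often: with 50 to 199 reads, 14.2% of 1854 genes were higher and 15.4% lower, and 2 and 4 of the 11 channel genes in that range were. With at least 200 reads, 4.94% of 8145 genes were higher and 5.17% lower, against 3 and 1 of 25 channel genes. The median log2 ratio was 0.16 over the measured channel genes and -0.002 over all measured genes, and the median absolute log2 ratio was 0.54 and 0.32. All channel genes together took 28602 and 32442 reads, 0.365% and 0.381% of the libraries.

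**Figure D1:**
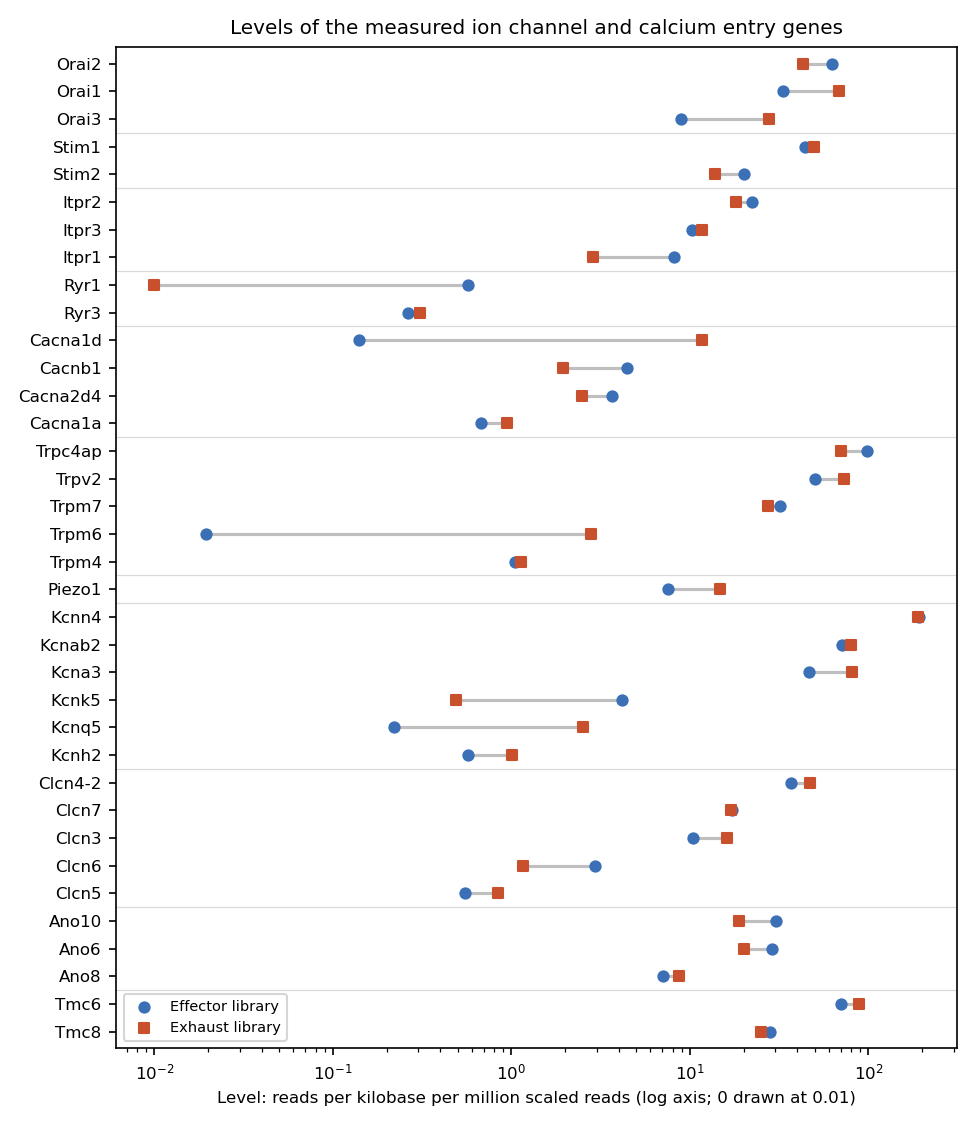
Levels of the 36 measured genes in the Effector library (circles) and the Exhaust library (squares), in RPKM (reads divided by gene length and scaled library size) on a log axis, grouped by family. Most pairs lie close together, and Ryr1, Cacna1d, Trpm6, Kcnk5 and Kcnq5 have the widest gaps; Ryr1 had 0 reads in the Exhaust library and is drawn at 0.01.

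The Orai genes encode the pore subunits of store-operated calcium entry, and they did not move together. Orai1, the main pore subunit of T cells (ENSMUSG00000049686, mm10 chromosome 5, 123015074 to 123030450), had 486 reads in the Effector and 1092 in the Exhaust library, 2.08-fold more (1.86 to 2.32). Orai3 (ENSMUSG00000043964, chromosome 7, 127769815 to 127775150) had 150 and 502 reads, 3.09-fold more (2.57 to 3.74). Orai2 (ENSMUSG00000039747, chromosome 5, 136147464 to 136170656) went the other way, with 1880 and 1398 reads, 1.45-fold fewer (1.36 to 1.56), which did not reach 2-fold. The lower end of the Orai1 interval lies under 2-fold, whereas that of Orai3 lies above it. No gene with reads in this table shares exon sequence with Orai1, Orai2 or Orai3.

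Because 2 pore genes had more reads and 1 had fewer, the make-up of the family differed between the libraries. Orai2 gave 74.7% of Orai reads in the Effector library (1880 of 2516, exact Clopper-Pearson 95% interval 73.0 to 76.4%) and 46.7% in the Exhaust library (1398 of 2992, 44.9 to 48.5%). The Orai1 share was 19.3% (17.8 to 20.9%) and 36.5% (34.8 to 38.3%), and the Orai3 share 5.96% (5.07 to 6.96%) and 16.8% (15.5 to 18.2%). Compared per kilobase of gene length as the table gives it, Orai2 led in the Effector library, at 62.2 RPKM (reads divided by gene length and scaled library size), followed by Orai1 at 33.1 and Orai3 at 8.92. In the Exhaust library Orai1 led at 68.8, followed by Orai2 at 42.8 and Orai3 at 27.6. Orai2 thus stood 1.88-fold above Orai1 in one library (1.70 to 2.08) and Orai1 stood 1.61-fold above Orai2 in the other (1.48 to 1.74). Lengths of merged GENCODE exons in place of the table's gave the same change of order between Orai1 and Orai2, with 1.46-fold and 2.07-fold. The order of Orai2 and Orai3 in the Exhaust library does depend on the length, with Orai2 over Orai3 at 1.55 by the table's lengths and 0.981 by merged exons.

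The store sensors differed less. Stim1, the main sensor (chromosome 7, 102267824 to 102436848), had 1243 and 1506 reads, 1.12-fold more in the Exhaust library (1.04 to 1.21). Stim2, the sensor of smaller store losses (chromosome 5, 53998417 to 54121057), had 789 and 586 reads, 1.46-fold fewer (1.31 to 1.62). Neither reached 2-fold. Stim1 gave 61.2% of Stim reads for Effector (59.0 to 63.3%) and 72.0% for Exhaust (70.0 to 73.9%). In the Effector library their order depends on the length used, since Stim1 was 2.20-fold above Stim2 per kilobase with the table's lengths and Stim2 was 1.28-fold above Stim1 with merged exons. In the Exhaust library Stim1 was above Stim2 with both, by 3.58-fold and 1.27-fold.

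**Figure D2:**
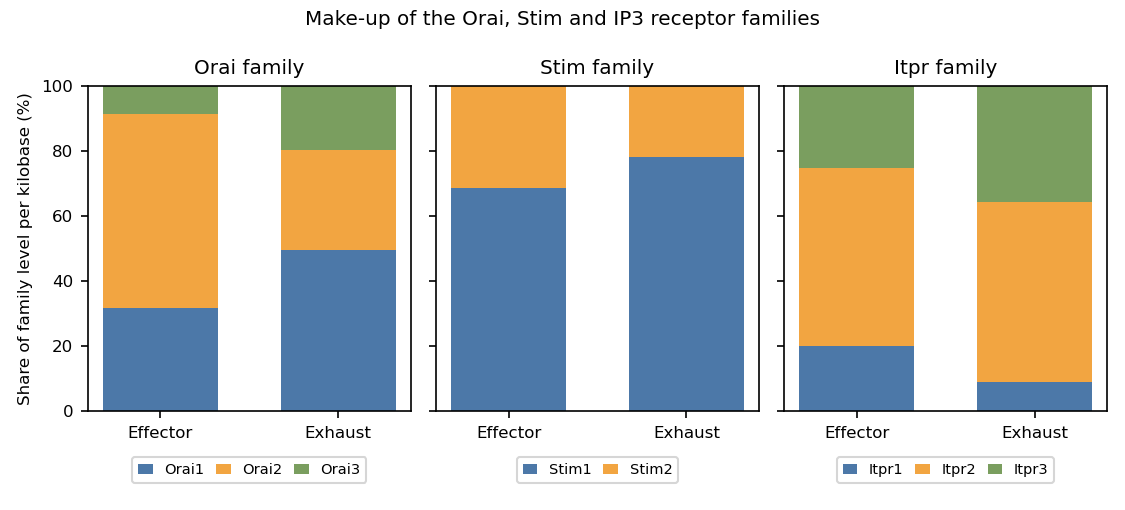
Share of each gene in the summed level of its family, per kilobase of the table's gene length (y axis, percent), for the Orai, Stim and IP3 receptor (Itpr) families in each library (x axis). Orai2 makes up 59.7% of the Orai bar in the Effector library and 30.7% in the Exhaust library, and Itpr1 20.1% and 8.77% of the Itpr bars.

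Of the calcium release channels in the endoplasmic reticulum, 1 IP3 receptor and 1 ryanodine receptor were lower. Itpr1 (ENSMUSG00000030102, chromosome 6, 108213118 to 108551109) had 633 reads in the Effector and 240 in the Exhaust library, 2.85-fold fewer (2.46 to 3.32). Itpr2 (2050 and 1801 reads) was 1.23-fold lower and Itpr3 (725 and 894 reads) 1.14-fold higher. The Itpr1 share of IP3 receptor reads was 18.6% (17.3 to 19.9%) against 8.18% (7.21 to 9.23%), while that of Itpr2 was 60.2% and 61.4%. Per kilobase Itpr2 was the highest of the 3 in both libraries, at 22.3 and 18.1 RPKM.

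Ryr1, which encodes the release channel best known from skeletal muscle (ENSMUSG00000030592, chromosome 7, 29003340 to 29125151), had 69 reads in the Effector library and 0 in the Exhaust library. Against a floor of 3 reads set for a library at 0, the fold was 24.9, and with counting error included the gene was at least 19.7-fold lower. Even in the Effector library its level was 0.572 RPKM. Of the other ryanodine receptor genes, Ryr3 had 32 and 40 reads and Ryr2 had 3 and 3, so neither differed beyond its counting error. Ryr3 shares 916 exon bases with Aven on the other strand, whose reads (326 and 358) outnumber its own. The counting program's strand setting is not given in the sources used here, so reads of the 2 genes cannot be told apart there.

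Among voltage-gated calcium channel genes, the pore gene Cacna1d stood out by its size. It had 10 reads in the Effector library and 898 in the Exhaust library (ENSMUSG00000015968, chromosome 14, 30039949 to 30491156), 83.0-fold more (44.9 to 174). Its exons share 589 bases with Chdh, the choline dehydrogenase gene on the other strand, which had 75 and 2045 reads, 25.2-fold more (20.0 to 32.2). Where the 2 genes overlap, their reads cannot be told apart. The auxiliary subunit genes named here had fewer reads in the Exhaust library: Cacnb1 had 119 and 56 reads, 2.30-fold fewer (1.66 to 3.22), Cacna2d4 had 167 and 122, and a second beta subunit gene, Cacnb3, had 30 and 0. The pore gene Cacna1a had 42 and 64 reads, within its counting error of equality (0.940 to 2.13). Of 26 Cacn genes 15 had a read and only these 4 (Cacna1d, Cacnb1, Cacna2d4 and Cacna1a) were measured.

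Trpm6 was nearly absent from the Effector library and measured in the Exhaust library. It encodes a magnesium-permeable channel fused to a kinase, best known from kidney and gut (ENSMUSG00000024727, chromosome 19, 18749983 to 18892510). It had 1 read in the Effector and 155 in the Exhaust library, a ratio of 143 with an interval of 25.3 to 5696, and no other annotated gene shares its exon sequence. Its close relative Trpm7, the magnesium channel-kinase that T cells widely express, had 1775 and 1652 reads, 1.16-fold fewer (1.09 to 1.24). Trpm6 therefore remained the lesser of the pair in the Exhaust library, where Trpm7 was 9.76-fold above it per kilobase (8.27 to 11.6). Trpv2, a cation channel of immune cells, had 1453 and 2288 reads, 1.46-fold more (1.36 to 1.56), and Trpm4, a calcium-activated sodium and potassium channel, had 35 and 41. The family rule also took Trpc4ap, an adaptor and no channel, which had 3028 and 2320 reads. No Trpc gene other than this adaptor reached 10 reads.

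Piezo1, the mechanically gated cation channel, had 488 reads in the Effector and 1026 in the Exhaust library. At 1.94-fold (1.74 to 2.17) it lay just under the 2-fold rule. It shares 2441 exon bases with Ctu2 on the other strand (402 and 324 reads). Piezo2 had 0 reads in both libraries.

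**Figure D3:**
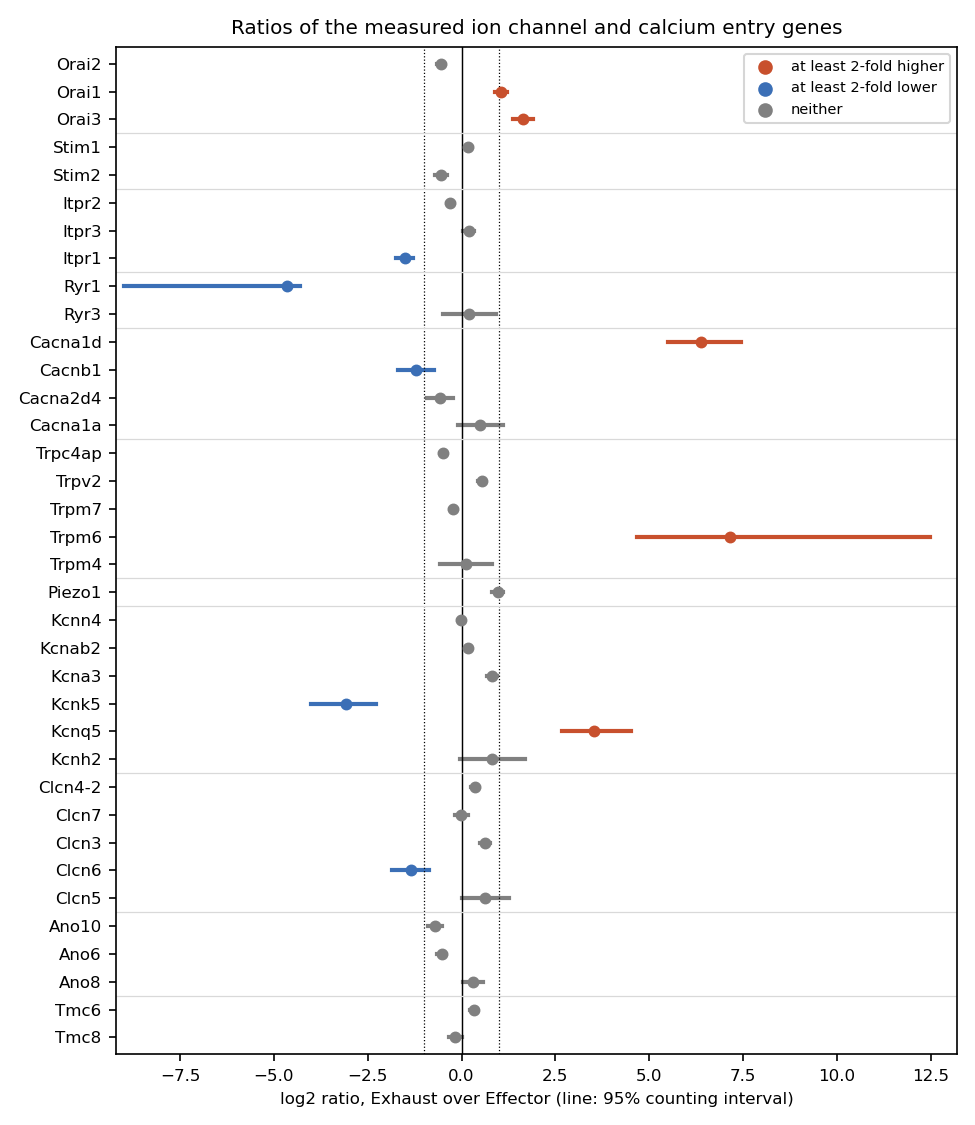
The log2 ratio of Exhaust over Effector (x axis) for the 36 measured genes, grouped by family, with 95% counting intervals as lines; dotted lines mark 2-fold and colours mark the 5 higher, 5 lower and 26 other genes. The interval of Ryr1, at 0 reads in the Exhaust library, has no lower end and runs to the edge of the plot. Members lie on both sides of 0 in every family with more than 1 measured gene.

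The 2 potassium channels best known from T cells were within 2-fold. Kcnn4, the calcium-activated channel, had the highest level per kilobase of all 196 genes in both libraries, with 3058 and 3255 reads and levels of 191 and 188 RPKM. Its ratio was 0.984 (0.936 to 1.03). Kcna3, the voltage-gated channel (chromosome 3, 107036162 to 107038129), had 718 and 1360 reads, 1.75-fold more in the Exhaust library (1.60 to 1.92). Kcnab2, which encodes the beta subunit that partners such voltage-gated channels, had 2189 and 2650 reads, 1.12-fold more (1.06 to 1.18). Kcnn4 was 4.12-fold above Kcna3 per kilobase in the Effector library and 2.32-fold above it in the Exhaust library. With merged exon lengths these became 1.58-fold above and 0.890-fold, so their order in the Exhaust library depends on the length used, while the lower ratio of Kcnn4 to Kcna3 there does not.

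Other potassium channel genes were rarer, and 2 of them differed. Kcnk5, a leak channel of the acid-sensitive kind (ENSMUSG00000023243, chromosome 14, 20140058 to 20181782), had 110 and 14 reads, 8.50-fold fewer in the Exhaust library (4.86 to 16.1). Kcnq5, a slowly opening voltage-gated channel known from neurons and smooth muscle (ENSMUSG00000028033, chromosome 1, 21398403 to 21961942), had 12 and 150 reads, 11.6-fold more (6.42 to 22.9). Kcnq5 shares 237 exon bases with Gm26580 on the other strand, which had 11 and 128 reads (10.8-fold, 5.81 to 22.1), and the 2 cannot be told apart where they overlap. Kcnh2, a voltage-gated channel known from heart, had 19 and 36 reads, a ratio of 1.75 whose interval (0.978 to 3.23) includes equality. Of 94 Kcn genes 40 had a read and 6 were measured. The antisense transcript Kcnq1ot1, which the protein-coding rule leaves out, had 385 and 613 reads, while Kcnq1 itself had 0 in both libraries.

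Of the 5 measured chloride exchanger genes, 4 were within 2-fold, though 3 of these 4 had intervals above equality. Clcn4-2 (1323 and 1830 reads, 1.28-fold more in the Exhaust library, 1.19 to 1.37), Clcn7 (547 and 587) and Clcn3 (667 and 1116, 1.55-fold more, 1.40 to 1.71) encode exchangers of endosomes and lysosomes. Clcn6, another exchanger of late endosomes (ENSMUSG00000029016, chromosome 4, 148004259 to 148038821), had 120 and 51 reads, 2.55-fold fewer (1.82 to 3.60). It was the 1 of 5 measured Clcn genes past the rule, and the remaining one, the endosomal exchanger gene Clcn5, had 36 and 60 reads (1.54-fold more, 1.003 to 2.40).

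None of the 5 measured anoctamin and Tmc genes passed it. Ano6, which encodes the calcium-activated lipid scramblase of the plasma membrane, had 1279 and 962 reads, 1.44-fold fewer in the Exhaust library (1.32 to 1.57). Ano10 (623 and 414 reads) was 1.63-fold lower (1.44 to 1.85), and Ano8, a protein of contacts between the endoplasmic reticulum and the plasma membrane, had 209 and 278. Tmc6 had 1578 and 2145 reads and Tmc8 604 and 584. They encode the partner proteins EVER of lymphocytes, lie side by side on chromosome 11 and share 40 exon bases on opposite strands.

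The 76 channel genes with 1 to 49 reads give counts only. In 58 of them the 2 libraries held under 10 reads together. At least 10 reads in 1 library and 0 in the other were found in 6 of the 112 genes with a read. On the Exhaust side these were the calcium-activated potassium channel gene Kcnn2 (0 and 42 reads), Ano7 (0 and 16) and the sodium channel subunit gene Scn4b (0 and 12), 3 of 112, where 0.327% of 17739 genes with a read met the same condition. On the Effector side they were Ryr1, Cacnb3 and Cacnb4 (10 and 0), where the background was 0.355%. Against the floor of 3 reads, Kcnn2 was 12.9-fold higher and Cacnb3 10.8-fold lower. By their counting intervals, which do not use the floor, Kcnn2 was at least 10.1-fold higher and Cacnb3 at least 8.27-fold lower. Further uneven counts, named after their values were seen, were those of Kcnh3 (36 and 1), Scn11a (30 and 6), Kcnj16 (24 and 4) and Kcnip2 (19 and 1). No sodium channel gene was measured, although 8 of 14 had a read, and the genes of this table that overlap Cacnb4 and Kcnn2 on the other strand had 0 reads and, for Kcnn2, 0 and 8.

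Genes that work with these channels but lie outside the families were taken from 7 lists of calcium handling and ion transport. Over all measured genes, 6.65% were higher and 7.07% lower by the 2-fold rule. Lists of 7 or 11 measured genes are too short to tell 0 calls from those shares. None of 7 measured partners of store-operated entry passed the 2-fold rule, but Tmem66 (Saraf), which encodes the inhibitor of Stim and Orai coupling, came close, with 6199 and 3374 reads, 1.99-fold fewer in the Exhaust library (1.91 to 2.07). Efcab4b (Cracr2a), an Orai-binding calcium sensor, had 72 and 123 reads. The list's median log2 ratio was -0.45. Of the calcium pumps and exchangers 0 of 7 passed the rule, with a median of 0.09. The plasma membrane pump gene Atp2b1 had 937 and 1651 reads (1.63-fold) and the store pump gene Atp2a3 6091 and 7634. None of 11 genes of mitochondrial calcium uptake passed it either (median -0.15), with the pore gene Mcu at 349 and 446 reads. The widest gaps of that list were those of Ccdc109b (Mcub), an Mcu-related subunit (70 and 43 reads, 1.76-fold fewer, 1.19 to 2.64), and Mcur1, a regulator of uptake (800 and 497, 1.74-fold fewer, 1.55 to 1.95).

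Upstream and downstream of the channels, single genes differed. Of 13 measured genes that make or remove IP3, 1 was higher and 0 lower, and 1 of 13 is near the 6.65% of all measured genes. The higher gene was Itpkb, a kinase that converts IP3 (624 and 1573 reads, 2.33-fold, 2.12 to 2.56). Plcg1, the phospholipase that makes IP3 after receptor triggering, had 2932 and 3058 reads. Of 19 measured calcineurin, NFAT and calmodulin pathway genes 2 were higher and 3 lower, with a median of -0.06, where 6.65% of all measured genes were higher and 7.07% lower. The higher genes were the transcription factor gene Nfatc1 (5015 and 13792 reads, 2.54-fold, 2.46 to 2.63) and Rcan1, a calcineurin inhibitor that NFAT itself induces (84 and 219 reads, 2.41-fold, 1.87 to 3.14). The lower ones were the calcineurin subunit gene Ppp3ca (477 and 82 reads, 6.29-fold, 4.97 to 8.05), Camk4 (1308 and 516, 2.74-fold, 2.47 to 3.04) and Camk1d (430 and 226, 2.06-fold, 1.75 to 2.43). The other catalytic subunit genes of calcineurin were within 2-fold, with Ppp3cb at 560 and 445 reads.

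The sodium-potassium pump and channels of other families also held single large differences. Among the pump genes, the beta subunit gene Atp1b1 was lower in the Exhaust library (483 and 81 reads, 6.45-fold, 5.09 to 8.27). The far more abundant beta subunit gene Atp1b3 had 9573 and 6768 reads. Of 24 measured genes of other channel families 1 was higher and 5 lower, with a median of -0.18, beside the same 6.65% and 7.07% over all measured genes. Ttyh3 was 3.84-fold higher (393 and 1631 reads, 3.43 to 4.29). Lower were Mcoln3, a cation channel of endosomes (68 and 1 reads, 73.6-fold, 12.8 to 2947), Clic4 (438 and 58, 8.17-fold, 6.20 to 10.9), the volume-regulated anion channel subunits Lrrc8c (1604 and 650, 2.67-fold, 2.44 to 2.93) and Lrrc8b (67 and 27, 2.68-fold, 1.69 to 4.37), and the water channel gene Aqp3 (108 and 53, 2.20-fold, 1.57 to 3.12). The ATP-gated channel gene P2rx7 had 1345 and 1457 reads, and its interval (0.929 to 1.08) includes equality.

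**Figure D4:**
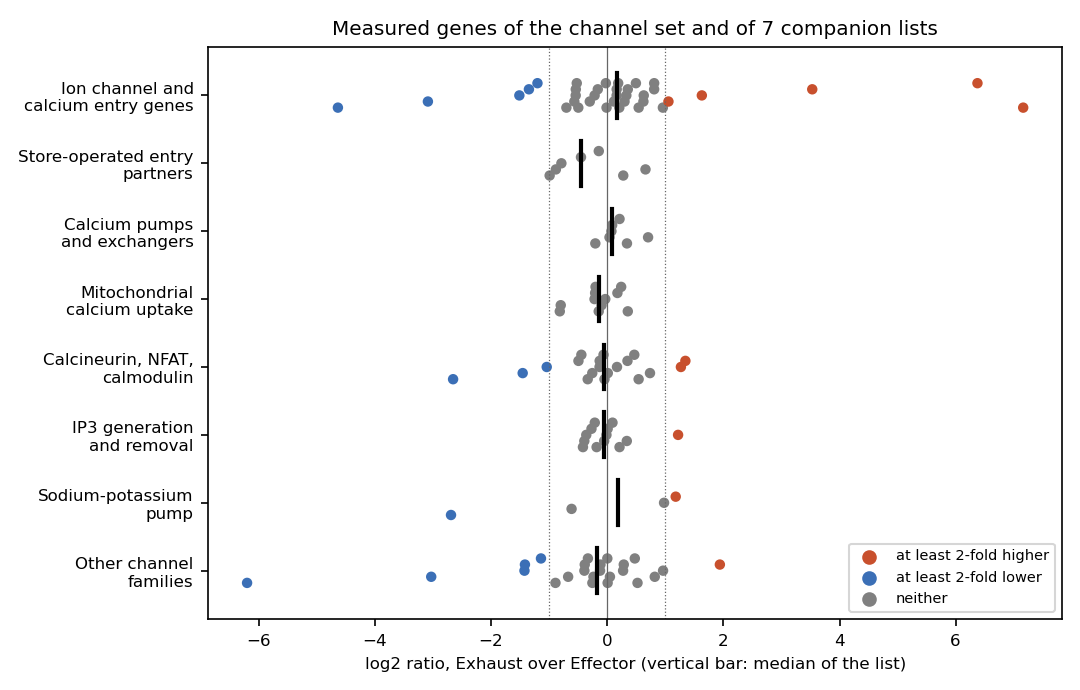
The log2 ratio of Exhaust over Effector (x axis) for every measured gene of the channel families (top row) and of the 7 companion lists, 1 point a gene, with the median of each list as a vertical bar and dotted lines at 2-fold. Points of the store entry partners, pumps and exchangers, and mitochondrial uptake lists all lie within 2-fold, and the channel families span -4.64 (Ryr1, at the floor) to 7.16 (Trpm6).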

How the data were processed

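RNA of sorted spleen TEa cells was measured in 2 libraries, 1 per group, and no replicate or pairing exists. Per the labels' protocols, the libraries were made from low-input total RNA. The authors deposited raw read counts by gene in whole numbers, with coordinates, gene type and, per the file headers, a gene length of unstated definition. STAR 2.6 and build mm10 are named per the submitters' processing notes. For the counting program, its strand setting and its handling of shared reads, nothing is stated in these sources.

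Libraries were scaled by TMM in edgeR 4.0.16 (R 4.3.3) on the measured genes of the whole table (50 reads or more). Each gene's Exhaust over Effector ratio was given a 95% interval from the exact Clopper-Pearson interval of the split of a gene's reads (scipy 1.17.1). A gene was called at 2-fold or more with an interval excluding equality. For the ratio, but not for its interval, a library at 0 reads was set to a floor of 3. Intervals and floors cover counting error only. The calling step was tested on simulated counts that held counting error only, so that test covers no variation between animals. Levels of different genes were compared as RPKM with the table's gene length.

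For the 36 measured genes this length was a median of 0.725 of the merged exons in the GENCODE annotation (0.347 to 1.03), which was also used for exon overlap. Named were all Orai, Stim, Itpr and Ryr genes, Kcna3, Kcnn4, every called gene, the 3 highest per family, those within 1.25-fold of the threshold and those with at least 10 reads against 0. Cacna1a, Clcn5, Trpm4 and companion genes with no call were added after their values were seen. The 7 companion lists held 137 entries, all matched, and not every called gene of them is reported here. Members and lists were chosen with earlier results of these data known. Alternatives were scaling by DESeq2 1.42.0, by totals or by upper quartile, other read minimums, other size rules and a prior count of 2.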

Additional observations from a re-analysis of the deposited data

How the results depend on the processing

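No paired analysis was possible because each group is 1 library, and no library could be left out. DESeq2 size factors, total counts, upper quartile scaling and a prior count of 2 changed the call of 0 of the 36 measured channel genes. The read minimum moved the counts. With at least 1 read, 10 channel genes of 112 were higher and 13 lower. Over all genes, 2142 of 17739 passed the rule in place of 1372 of 9999. The channel median turned from 0.16 to -0.11 on the log2 scale. In that setting a library at 0 reads takes the floor of 3 even where the other has 1 or 2 reads, which can turn a ratio. With at least 200 reads 3 channel genes were higher and 1 lower, of 25, and 823 of all 8145 genes passed. An interval wholly beyond 2-fold kept 4 higher and 3 lower channel genes of 36, and 861 of all 9999 genes. A 4-fold rule kept 3 and 2 of 36, and 458 of 9999. An alternative chosen after seeing the data left out the members whose exons overlap another gene with reads. Of the 27 measured channel genes that remained, 3 were higher (Orai1, Orai3 and Trpm6) and 5 lower. Leaving out Trpc4ap, Kcnab and Kcnip genes and Kcnrg, also chosen then, kept 34 of the 36 measured genes. It could not change the 5 higher and 5 lower genes, since no gene left out was called. At this depth the 76 channel genes with 1 to 49 reads cannot show a difference of modest size.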
